A study of Vitis vinifera and Vitis x champinii x Vitis riparia and Vitis cinerea var. helleri x Vitis rupestris with 22 samples.

Results

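The roots of 140 Ruggeri and Cabernet Sauvignon were compared under control conditions on 7 arrays, 3 of 140 Ruggeri and 4 of Cabernet Sauvignon, out of 22 arrays in the series. These 7 arrays are those whose labels name either variety, root tissue and the control treatment. 140 Ruggeri is a rootstock bred from Vitis berlandieri and V. rupestris, and Cabernet Sauvignon is a wine variety of V. vinifera. Both were unmodified plants, grown as rooted leaves (a leaf on its petiole with new roots) in hydroponics. The control roots received nutrient solution only over the 4 days in which the salt roots received 50 mM Cl-, and the roots of 4 rooted leaves were pooled for each array. The other arrays held the same varieties with salt and a further rootstock, K51-40, bred from V. champinii and V. riparia. K51-40 is quoted here only for the level it had on its own control arrays.

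Chloride that enters a root reaches the shoot only if it is released into the xylem, the dead conduits that carry water upward. Root cells hold it back by storing it in the vacuole or by loading less of it into the xylem, but which proteins do so in grapevine roots is largely open. Candidates include chloride channels, nitrate transporters with some affinity for chloride and kinases that may regulate them. 140 Ruggeri is known as a chloride excluder, a rootstock that passes little chloride to the scion. The comparison asks which transcripts already differed between its roots and those of Cabernet Sauvignon before any salt was given.

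Each array carried 52478 designed probes of 60 bases for 26241 genes, nearly all of them (26237) with a pair of probes. Values are the processed log2 intensities, averaged over the spots of a probe. They rank arrays for 1 probe and not probes or genes against each other. A difference is the mean of 140 Ruggeri minus the mean of Cabernet Sauvignon in log2 units, given ± SE from limma. A probe was called when its adjusted p (Benjamini-Hochberg, over all probes) was at most 0.05 and its difference at least 0.5, which is 1.41-fold. A gene counts as called through any 1 of its called probes. The value given first is that of the probe with the smallest p, and where 2 values are given the second is that of the other probe. Array values are in the order of the replicate numbers.

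Arrays of 1 variety correlated across probes with r between 0.9908 and 0.9963 over the 9 pairs, and arrays of different varieties with r between 0.9391 and 0.9559 over the 12 pairs. Per array, 74.4% to 78.7% of the spots were well above background by the scanner software, and the median signal was 3.91 to 9.97 times the background. The scanner file of Cabernet Sauvignon control replicate 3 did not match its own processed column (r = 0.931) and matched that of K51-40 control replicate 1 best (r = 0.990). Its processed column correlated with the other Cabernet Sauvignon controls at a mean r of 0.995, so the processed values were used. Without this array 7889 probes were called higher and 7774 lower, against 7932 and 7828 with it. Cabernet Sauvignon control replicate 4 was the only array of the 7 scanned on the second date, and without it the counts were 8266 and 8027. Slide 1 held 1 array of 140 Ruggeri and 2 of Cabernet Sauvignon, and slide 3 held 2 and 1. Within these slides, 99.94% and 99.97% of the called probes had the sign they had over all 7 arrays. The probes were called on these same arrays, so a high share follows from the choice and is not a separate test. Among root genes, SKOR, the channel that releases potassium into the xylem, stood at a mean of 10.71 in 140 Ruggeri and 10.12 in Cabernet Sauvignon, but a few were dim, such as the HKT1 gene VIT_11s0103g00150, which was well above background on none of the 3 Cabernet Sauvignon arrays with a reliable scanner file. Of the 12 root marker genes, 8 were called higher and 2 lower in 140 Ruggeri, and their summed log2 level was 14.41 to 14.58 on its arrays and 13.9 to 14.06 on those of Cabernet Sauvignon. Of all genes 21.2% were called in each direction. Of the annotated genes, from which the markers were drawn, 36.9% were called higher and 26.4% lower. The 4 photosystem genes matched as leaf markers summed to 14.24 to 15.02 and 14.01 to 14.51, with 1 called in each direction. Signal of these genes was thus present in both groups. Whether it came from green tissue was not tested, nor was its part in the results. In whole roots, fewer cells of a type and less RNA per cell cannot be told apart.

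A large share of the root transcriptome differed between the varieties. Of all probes, 7932 (15.1%) were higher and 7828 (14.9%) lower in 140 Ruggeri, which together are 30.0% of the probes tested. Through at least 1 probe, 5560 genes were higher (21.2%) and 5570 lower (21.2%), and 10845 genes (41.3%) were called in any direction. A stricter count, through all probes of a gene in 1 direction, gave 2372 higher (9.04%) and 2258 lower (8.60%) genes. The differences were mostly moderate, with a median absolute value of 0.88 over the called probes. At 2 log2 or more, 4-fold, 389 genes were higher and 788 lower through at least 1 probe, and 114 and 210 through all of them. The median over all probes was 0.04 in these quantile normalized values. The arrays of the 2 varieties did not overlap for 24964 probes (47.6%).

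The arrays were designed on the V. vinifera genome, the species of Cabernet Sauvignon but not of 140 Ruggeri. Weaker binding of a probe to a 140 Ruggeri transcript of different sequence cannot be told apart here from lower abundance. No probe sequences were at hand, so such mismatches were not tested. The 2 probes of a gene show only how far their differences matched. Their differences correlated with r = 0.63 over the 26237 genes, which are not independent replicates. Of the 10845 called genes, 5930 were called through 1 probe only, and in 73.0% of these the other probe had the same sign. Both probes were called for 4915 genes, 4630 of them in the same direction and 285 in opposite directions. Among the 1169 genes with a probe past 2 log2, the other probe was within 0.5 of zero for 300 and at least 1 in the same direction for 657. The second probe followed in 61.6% of the 383 genes that were higher and 53.6% of the 786 that were lower. Past 4 log2 these shares were close, at 60.5% of 38 higher and 60.2% of 98 lower genes. The second probe is therefore given beside most of the large values.

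**Figure D1:**
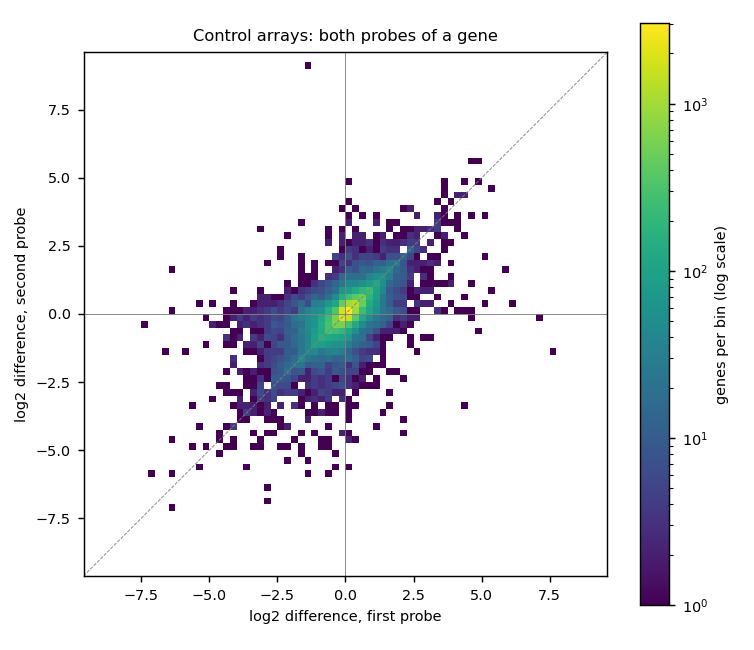
Log2 difference between 140 Ruggeri and Cabernet Sauvignon control roots for the first probe (horizontal axis) and the second probe (vertical axis) of the 26237 genes with 2 probes, as the number of genes in each square bin on a log colour scale; the dashed line marks equal values. Most genes lie near the dashed line (r = 0.63), and the arms along the axes are genes for which only 1 probe differed.

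Probes seen in 1 variety only were more numerous on the side of Cabernet Sauvignon. On the 6 arrays with reliable scanner files, 548 probes were well above background on every array of 140 Ruggeri and on none of Cabernet Sauvignon, and 1119 probes showed the reverse. Through all their probes, 84 and 174 genes did so and were called in the matching direction. For such probes the fold change is taken as a lower bound and is given as "at least". It is the mean of the bright variety over the measured level of the dim one, or over its background level where that is higher. Of 36568 probes above background on all of these arrays of both varieties, 36.1% were called, and of 7784 above background on none, 5 probes were.

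The 12 genes highest and the 12 genes lowest in 140 Ruggeri were taken among annotated genes with all probes called in 1 direction and no overlap between the arrays, a condition met by 814 of the 2731 annotated genes and by 4438 (16.9%) of all genes. They were ranked by the smaller of the 2 differences, which ran from 2.69 to 4.86 in the first set and from 2.72 to 5.88 in size in the second. The sets were chosen by size and for arrays that do not overlap, so the values below describe them. Their separation follows from the choice and is not a further result.

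The gene at the top of the list was VIT_07s0141g00870, annotated as a secretory protein. It measured 10.96, 11.03 and 11.23 in 140 Ruggeri and 6.15, 6.14, 6.13 and 6.43 in Cabernet Sauvignon. The 2 groups were far apart on every array, and both probes gave nearly the same difference, 4.86 ± 0.18 (adjusted p = 1.63e-14) and 4.87. The other rootstock, K51-40, was also high, at a mean of 12.43. A concanavalin A type lectin, VIT_03s0097g00110, one of a class of sugar-binding proteins, measured 11.18, 11.41 and 11.33 against 6.04, 6.12, 6.18 and 6.79. Its probes differed by 5.03 ± 0.28 and 3.58, and K51-40 stood at 10.48.

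Several of the high genes encode enzymes of lipid and specialised metabolism. The long-chain acyl-CoA synthetase VIT_07s0005g01790, which activates fatty acids, measured 9.12, 9.04 and 8.99 against 5.12, 4.93, 4.81 and 5.57. It was not well above background in Cabernet Sauvignon, so it was at least 14.9-fold and, through the other probe, at least 12.1-fold higher in 140 Ruggeri (differences of 3.94 ± 0.26 and 3.66). CYP94B3, VIT_14s0068g02120, named after an Arabidopsis enzyme that inactivates the active form of jasmonate, measured 9.49, 9.48 and 9.76 against 6.22, 5.98, 6.08 and 6.77. Its probes differed by 3.32 ± 0.21 and 3.32. VIT_13s0067g02720, annotated to cytochrome P450 family 79, which makes oximes from amino acids, measured 8.45, 8.16 and 8.27 against 4.84, 5.09, 5.32 and 5.01 (3.23 and 3.34) and was at least 9.10-fold higher. An O-methyltransferase, VIT_12s0028g01880, measured 9.09, 9.20 and 9.36 against 5.83, 5.58, 5.24 and 5.46, with differences of 3.69 ± 0.24 and 2.96. For the last 2 of these enzymes the level of K51-40 was still higher than that of 140 Ruggeri, at 9.93 and 10.13.

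Proteins of the cell surface formed another set. A pair of neighbouring genes named CF2 after a tomato receptor of fungal resistance, VIT_13s0084g00570 and VIT_13s0084g00560, differed by 3.60 ± 0.34 (second probe 4.09) and by 3.42 ± 0.30 (second probe 4.15). The first gene measured 8.72, 8.76 and 8.79 against 5.00, 4.98, 5.02 and 5.63 and was at least 12.1-fold higher by its first probe. Being neighbours with 1 name, they may share probe matches, which was not tested. Germin protein 3, VIT_14s0128g00690, of a family of extracellular proteins, measured 11.19, 11.47 and 11.35 against 7.98, 8.0, 7.62 and 7.96 (3.45 ± 0.30 and 3.55). The aquaporin NIP1.2, VIT_14s0108g00700, closed the list, with 11.31, 11.47 and 11.22 against 8.70, 8.72, 8.56 and 8.58. Its 2 probes differed by 2.69 ± 0.24 (adjusted p = 7.63e-09) and 2.84, with tight values within each variety. The remaining genes of the set were a pyrrolo-quinoline quinone protein and an aspartyl protease, which spread most within 140 Ruggeri, at 9.55, 10.52 and 9.23 against 6.19, 6.33, 6.66 and 7.42.

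**Figure D2:**
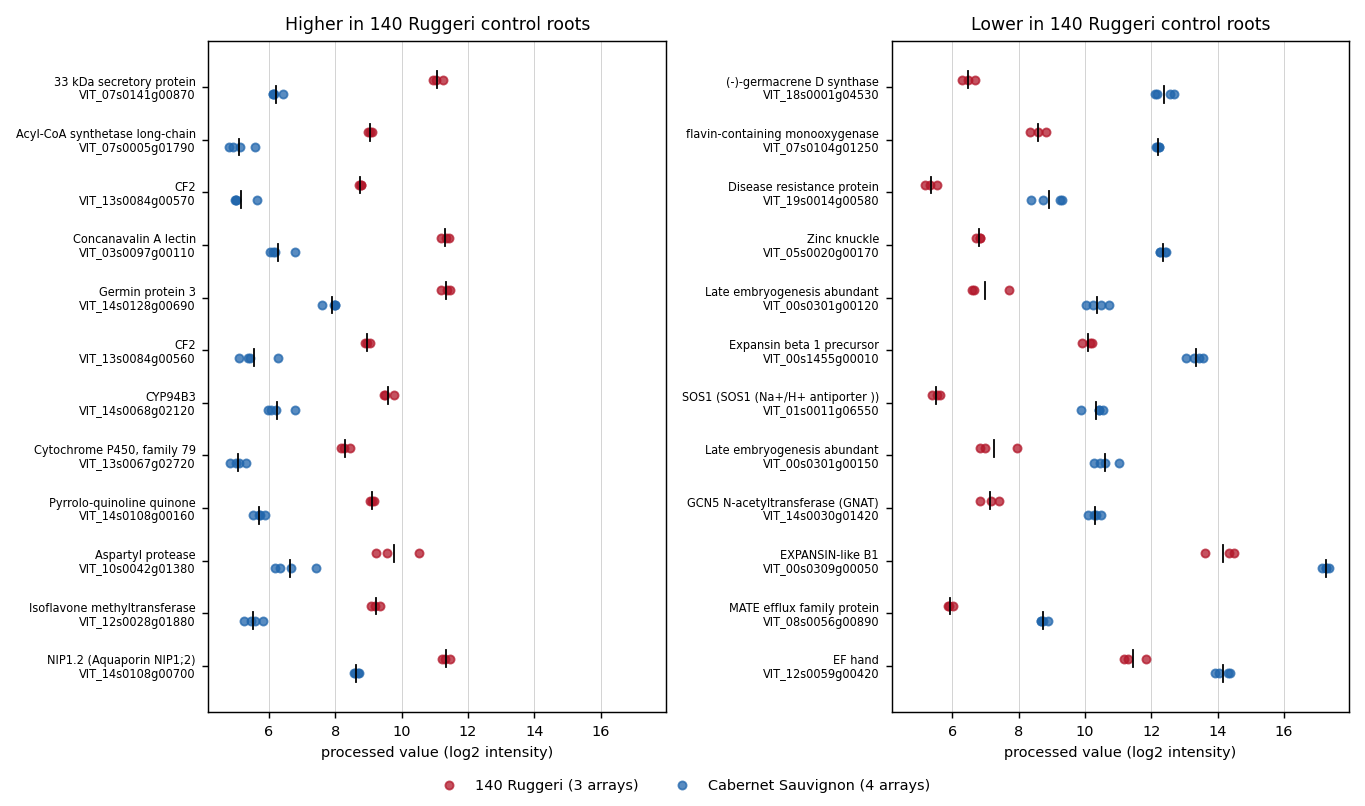
Processed log2 intensity (horizontal axis) of the 12 annotated genes highest and the 12 lowest in 140 Ruggeri, 1 point per control array for the probe with the smallest p, with a black bar at each mean; red is 140 Ruggeri (3 arrays) and blue is Cabernet Sauvignon (4 arrays). The genes were chosen for groups that do not overlap, and SOS1 stands near 5.5 on the 140 Ruggeri arrays and above 9.8 on those of Cabernet Sauvignon.

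The 12 lowest annotated genes were led by a (-)-germacrene D synthase, VIT_18s0001g04530, an enzyme that closes the ring of a sesquiterpene. It measured 6.31, 6.68 and 6.48 in 140 Ruggeri and 12.68, 12.55, 12.17 and 12.12 in Cabernet Sauvignon, differences of -5.88 ± 0.23 (adjusted p = 2.43e-14) and -7.20. K51-40 was low as well, at 5.55. A zinc knuckle gene, VIT_05s0020g00170, measured 6.72, 6.85 and 6.83 against 12.44, 12.25, 12.42 and 12.25 (-5.54 ± 0.15 and -3.41). The flavin-containing monooxygenase VIT_07s0104g01250 measured 8.59, 8.84 and 8.36 against 12.22, 12.23, 12.14 and 12.18, and its probes fell together, at -3.60 ± 0.21 and -3.57. By the rule of choice, the arrays of the 2 varieties lay apart on all of these.

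SOS1, VIT_01s0011g06550, was 1 of the 12 lowest and the only gene of ion transport with a named role in salt tolerance among them. In Arabidopsis SOS1 is the Na+/H+ antiporter of the plasma membrane that pumps sodium out of root cells and into the xylem. It measured 5.55, 5.39 and 5.65 in 140 Ruggeri and 10.43, 10.43, 10.54 and 9.89 in Cabernet Sauvignon. No array of 140 Ruggeri had it well above background through either probe, so it was at least 27.7-fold lower by the first probe and at least 7.93-fold by the other (-4.79 ± 0.35, adjusted p = 2.69e-10, and -3.03 ± 0.25, adjusted p = 2.16e-09). The K51-40 controls stood between them, at 7.83 and 6.22 for the 2 probes. Its regulators, the kinase SOS2 (-0.14 and -0.02) and the calcium sensor SOS3 (-0.32 and -0.23), were not called.

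Wall and stress proteins made up much of the rest of the low set. The expansin-like gene VIT_00s0309g00050, of a family that loosens cell walls, measured 14.49, 14.33 and 13.62 against 17.34, 17.27, 17.27 and 17.13. Its call was lost in the 3 settings that used the scanner signal of all arrays, with an adjusted p up to 0.124. Expansin beta 1, VIT_00s1455g00010, differed by -3.25 ± 0.48 and -3.20. A pair of late embryogenesis abundant genes, which encode proteins that protect drying cells, differed by -3.38 ± 0.49 (VIT_00s0301g00120, second probe -3.26) and -3.34 ± 0.51 (VIT_00s0301g00150, second probe -2.90). A disease resistance gene of the NBS-LRR type, VIT_19s0014g00580, measured 5.34, 5.55 and 5.17 against 9.32, 8.74, 9.25 and 8.38 and was at least 11.9-fold lower, with a second probe at -3.61. By the same rule of choice, the arrays of these genes did not overlap between the varieties. A GCN5-type acetyltransferase, a MATE efflux protein and an EF hand protein completed the set, with smaller differences between -2.87 and -2.72.

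The array design held 90 genes listed as putative anion transporters, each printed 11 or 12 times per probe, so the list did not depend on measured levels. Of these genes 17 were called higher and 17 lower in 140 Ruggeri, 18.9% each against 21.2% of all genes, and 33 were called in all. Through all probes the counts were 10 and 10, and the median difference of the list was 0.01. The list as a whole thus stood close to the background share, and the differences lay in single members.

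Both nitrate excretion transporters were lower in 140 Ruggeri. In Arabidopsis NAXT1 releases nitrate from root cells across the plasma membrane. NAXT1, VIT_06s0004g03520, measured 6.16, 6.70 and 6.47 in 140 Ruggeri and 7.76, 8.26, 8.59 and 8.63 in Cabernet Sauvignon (-1.87 ± 0.17, adjusted p = 1.39e-08, and -0.75). Its neighbour NAXT2, VIT_06s0004g03530, measured 8.32, 8.87 and 8.69 against 9.62, 10.01, 10.42 and 10.48 (-1.51 ± 0.18, adjusted p = 6.13e-07, and -1.05). Neither overlapped between the varieties, and K51-40 was lower than both, at 5.22 and 7.59.

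Of the 13 nitrate transporters of the NRT1 group, 4 were higher and 1 lower. The lower one, NRT1.5, VIT_02s0012g01160, is named after the Arabidopsis protein that loads nitrate into the xylem. It measured 8.88, 9.53 and 9.25 against 10.92, 11.04, 11.40 and 11.16 (-1.91 ± 0.19, adjusted p = 3.04e-08), and its other probe, for which the arrays overlapped, differed by -0.52. The paper reports that its NRT1.5 probe matched the genome less well than its E-value threshold required. Which of the 2 probes this was is not known here. The paper also measured NRT1.5 by qRT-PCR in the varieties under control conditions, and those values are not compared here. NRT1.8, VIT_15s0021g00330, whose Arabidopsis namesake takes nitrate back out of the xylem, went the other way, at 7.55, 7.73 and 8.33 against 6.05, 6.46, 6.52 and 6.41. Its probes differed by 1.51 ± 0.29 (adjusted p = 0.000172) and 1.4, without overlap, and K51-40 stood at 7.46. NTL1, VIT_18s0089g01010, measured 8.23, 8.26 and 8.05 against 6.40, 6.24, 6.51 and 6.47 (1.78 ± 0.15 and 1.55). The other higher members were VIT_17s0000g05640 (0.77 and 1.23) and VIT_02s0154g00260 (0.51 and 0.17). NRT1.4 (0.15 and -0.13) and NRT1.11 (0.18 and -0.11) were not called.

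NAXT1, NAXT2, NRT1.5 and NTL1 lost their calls in the 3 settings that used the scanner signal of all arrays, Cabernet Sauvignon control replicate 3 included, where NAXT1 stood at -0.78 to -1.03 with an adjusted p up to 0.649. They kept them in both settings that left that scanner file out, and NRT1.8 kept its call in all 23 settings.

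Chloride channels of the CLC family move anions across the vacuole and other internal membranes, and 1 of the 8 was called. This CLC-c, VIT_07s0130g00400, was lower in 140 Ruggeri, at 5.87, 5.84 and 5.77 against 7.37, 7.68, 7.59 and 7.51 (-1.71 ± 0.09, adjusted p = 3.86e-12, and -1.17). The values within each variety were close, and K51-40 was at the level of 140 Ruggeri, 5.72. The second CLC-c gene, VIT_12s0035g01720, had differences of 0.41 and 0.32, CLC-b of 0.28 and 0.16, and CLC-f of -0.34 and 0.17, none of them called. Of the 5 slow anion channels, SLAC1 (0.21 and 0.04) and the 3 SLAH1 genes were not called. SLAH3, VIT_16s0050g01860, a channel of nitrate and chloride in Arabidopsis, was called lower through 1 probe, at 6.78, 6.81 and 7.05 against 7.22, 7.43, 7.87 and 7.66 (-0.67 ± 0.21, adjusted p = 0.011). Its other probe gave 0.29, and the call was lost in 8 of 23 settings, so the data do not settle its direction.

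The 38 proton-coupled oligopeptide and peptide transporters (the POT family, relatives of the NRT1 proteins) had 9 higher and 10 lower members. GTR1, VIT_17s0000g05550, named after an Arabidopsis glucosinolate transporter, measured 8.65, 8.80 and 9.22 against 6.62, 6.92, 6.74 and 6.74 (2.14 ± 0.27 and 2.19), and no array overlapped. A second gene model paired with the same identifier differed by 0.97 through 1 probe and -1.70 through the other. VIT_18s0041g00480 was the member with the smallest p, at 9.54, 9.23 and 9.56 against 7.21, 7.15, 7.45 and 7.53 (2.11 ± 0.12, adjusted p = 4.69e-12, and 2.21). It belongs to a block of POT genes on 1 scaffold that did not move together: VIT_18s0041g00670 (1.19) and VIT_18s0041g00590 (0.89) were higher, and VIT_18s0041g00580 (-0.78), VIT_18s0041g00560 (-0.65) and VIT_18s0041g00540 (-0.61) lower. Such neighbours have similar sequences, and how far their probes cross-match was not tested. Among lower members, VIT_13s0067g02340 differed by -1.81 and -0.53 and VIT_08s0007g02020 by -1.20 and -1.25.

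Of the remaining 24 genes of the list, 4 were higher and 2 lower. ABCC12, VIT_09s0002g02430, an ABC transporter of the vacuolar type, was lower through both probes, at 8.70, 8.36 and 8.39 against 9.76, 9.99, 9.87 and 9.27 (-1.24 ± 0.19 and -1.08), and K51-40 stood at 9.96. The others called were genes without a transport annotation.

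**Figure D3:**
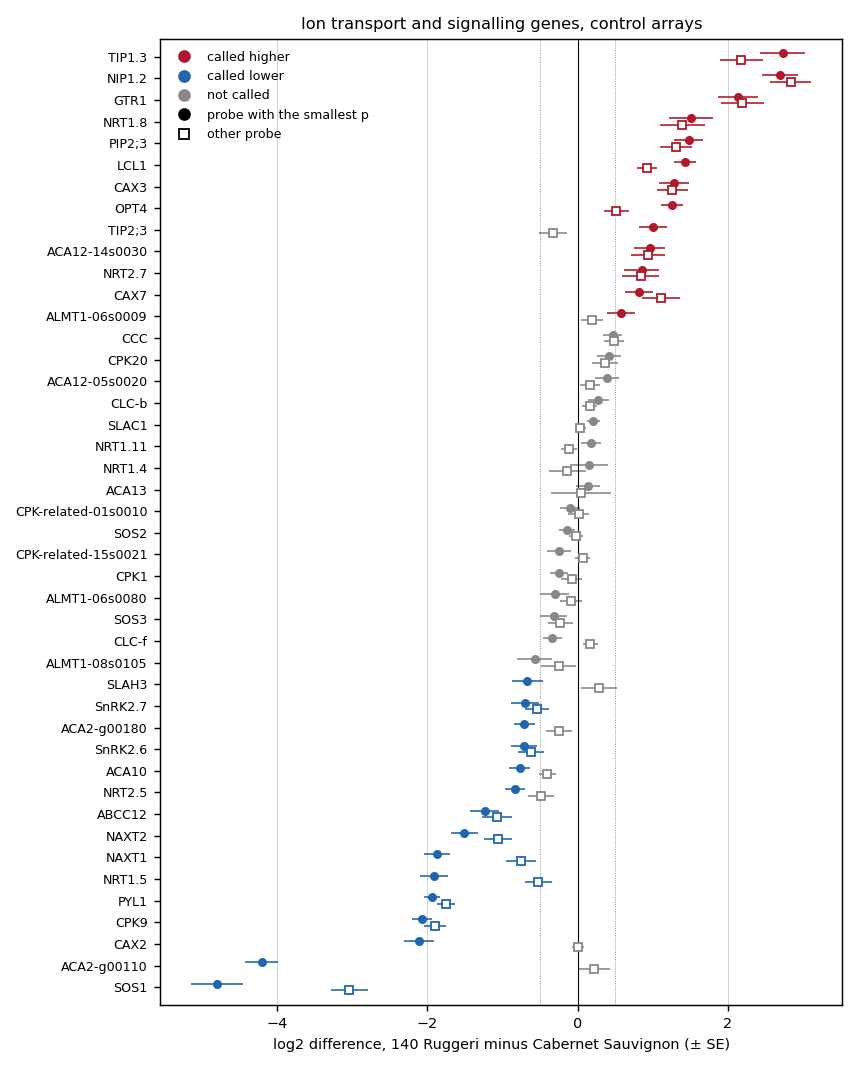
Log2 difference between 140 Ruggeri and Cabernet Sauvignon control roots (horizontal axis, ± SE from limma) for genes of ion transport, water transport and their signalling, with the probe of smallest p as a circle and the other probe as an open square; red is called higher, blue called lower, grey not called, and dotted lines mark a difference of 0.5. Among the circles TIP1.3 (2.73) and SOS1 (-4.79) stand at the ends, while the open square of NIP1.2 lies farther right (2.84). The 2 probes of CAX2 and of ACA2-g00110 are far apart.

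Genes of ion and water transport outside the list were mixed in direction, and the authors had selected many of them on these arrays, so they are not an independent sample. Aquaporins, which carry water and small solutes, were mostly higher: 8 of 10 were called higher and 1 lower, 5 and 0 through all probes, with a median of 0.69. Of all genes 21.2% were called in each direction, and of the annotated genes 36.9% were higher and 26.4% lower. TIP1.3, VIT_13s0019g00330, an aquaporin of the vacuole membrane, measured 10.38, 9.95 and 9.80 against 7.11, 7.33, 7.37 and 7.45 (2.73 ± 0.30, adjusted p = 1.44e-07, and 2.18), with K51-40 at 9.61. PIP2;3, a plasma membrane aquaporin, measured 12.62, 12.77 and 12.26 against 11.37, 11.00, 10.91 and 11.00 (1.48 ± 0.19 and 1.31). The varieties were separated on every array for both. The lower member, TMP-C, VIT_02s0025g03390, differed by -1.12 through 1 probe and by -0.17 through the other.

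Calcium transport differed gene by gene. CAX3, VIT_06s0004g06570, a Ca2+/H+ exchanger that fills the vacuole, measured 9.74, 9.79 and 9.77 against 8.09, 8.32, 8.34 and 9.18 (1.28 ± 0.20, adjusted p = 1.89e-05, and 1.26), and CAX7 was higher by 0.82 and 1.1. Both groups of CAX3 were apart, the fourth Cabernet Sauvignon array being the nearest. CAX2 (-2.11 and 0.01) and ACA2-g00110, VIT_07s0129g00110, a Ca2+-ATPase (-4.20 and 0.22), were each low through 1 probe only, although the arrays of the latter read 5.36, 5.52 and 5.64 against 9.64, 9.93, 10.00 and 9.28. ACA10 (-0.77 and -0.40) was lower through 1 probe and ACA12-14s0030 (0.96 and 0.94) higher through both. The cation-chloride symporter CCC, a carrier of sodium, potassium and chloride, had differences of 0.47 and 0.48 with no overlap and was not called, since these lie under the fold threshold. Of 3 ALMT1 genes, which belong to a family of malate and anion channels, 1 was called, higher by 0.58 through 1 probe (0.19 through the other). This call was lost in 5 of 23 settings, among them without 140 Ruggeri control replicate 2 and without Cabernet Sauvignon control replicate 2, with an adjusted p up to 0.0676.

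Of 8 kinases and receptors of calcium and abscisic acid signalling, 4 were lower and 0 higher. Of all genes, 21.2% were called in each direction, and of the annotated genes 36.9% were higher and 26.4% lower. The paper lists these 8 genes because they differed between the rootstocks under control conditions. That comparison used the same control arrays of the chloride excluder, so the count is not independent evidence of direction. CPK9, VIT_18s0001g00980, a calcium-dependent kinase, measured 5.73, 5.64 and 5.59 against 7.45, 7.91, 7.73 and 7.80 (-2.07 ± 0.14, adjusted p = 8.55e-11, and -1.90). The abscisic acid receptor PYL1, VIT_02s0012g01270, measured 8.17, 8.42 and 8.24 against 10.20, 10.25, 10.15 and 10.26 (-1.94 ± 0.10, adjusted p = 2.05e-12, and -1.74), and K51-40 stood at 6.87. Neither overlapped. The call of PYL1 was lost in the same 3 settings as that of NAXT1, and that of CPK9 in none. SnRK2.6 (-0.71 and -0.62) and SnRK2.7 (-0.70 and -0.54), kinases of abscisic acid and osmotic signalling, were lower, and CPK1 (-0.25 and -0.08) and CPK20 (0.42 and 0.37) were not called. LCL1, a MYB factor of the circadian clock, was higher, at 9.89, 9.96 and 9.99 against 8.51, 8.49, 8.63 and 8.46 (1.43 ± 0.15 and 0.92).

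Sodium and potassium transporters had 10 higher and 5 lower members of 19. CHX19, VIT_05s0020g01150, a cation/H+ exchanger, measured 6.93, 7.20 and 6.82 against 10.27, 10.07, 10.63 and 10.34 (-3.35 ± 0.33 and -2.17), and it was the lowest of these after SOS1. HKT2, a potassium-sodium symporter (VIT_11s0103g00010), differed by -1.44 and -1.16. Sulfate transporters had 4 higher and 6 lower of 11, of which 2 and 1 through all probes, and VIT_09s0002g05660 was the one lower through both (-1.46 and -1.24). Among metal transporters, 8 of 24 were higher and 9 lower, with ZIF1, a zinc transporter of the vacuole in Arabidopsis (2.80 and 1.96, VIT_13s0047g00020), and YSL1, a carrier of metal chelates (1.99 and 1.10, VIT_02s0025g02500), among the higher ones. Amino acid carriers had 13 higher and 4 lower of 24, and ABC transporters 13 and 7 of 40. These counts are to be read beside the annotated genes, of which 36.9% were higher and 26.4% lower.

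Other families were grouped by words in the annotation. The annotation at hand covered 2731 genes, of which 36.9% were higher and 26.4% lower. Most of it came from tables the authors had selected on these arrays, 1 of which compared the rootstocks and so used the same 140 Ruggeri arrays. Only a shortened copy of that rootstock list was at hand, with entries higher in 140 Ruggeri than in K51-40, and the rest of it was not used here, so a gene counted as outside it may stand in the remainder. Of the 1090 annotated genes not in the entries at hand, 27.4% were higher and 29.2% lower. The counts of a family are to be read beside these shares and are not independent evidence of direction. The count outside those entries is given for some families only. Among the transporters above, 3 of 10 metal transporters outside that list were higher and 7 lower, as were 0 and 4 of 4 sulfate transporters. Outside it, 8 of 27 ABC transporters were higher and 2 lower, and 4 and 3 of 10 sodium and potassium transporters. For flavonoid enzymes the counts outside it were 6 and 3 of 15, for auxin carriers 2 and 2 of 4, and for MYB genes 3 and 2 of 13.

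Defence genes were more often higher than lower. NBS-LRR resistance proteins, the intracellular receptors of pathogen molecules, had 48 higher and 14 lower of 77, and among those outside that list 15 and 3 of 24. The RPS2 gene VIT_11s0016g01860 was higher by 2.34 ± 0.14 and 1.89, at least 4.98-fold and 3.70-fold, and VIT_09s0096g00010 by 2.25 ± 0.15 and 1.36. Receptor-like kinases had 58 higher and 10 lower of 96, but among those outside that list 11 and 6 of 33. The S-receptor kinase VIT_05s0020g03270 was higher by 3.70 ± 0.18 and 1.03. Pathogenesis-related proteins had 12 higher and 6 lower of 23. PR-1, VIT_03s0088g00810, measured 9.37, 7.82 and 8.03 against 6.18, 6.47, 5.35 and 5.87 (2.44 ± 0.50 and 2.28), with the first 140 Ruggeri array well above the other two and no overlap. PR-4, VIT_14s0081g00050, was higher by 2.28 ± 0.19 and 2.29.

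Stilbene synthases, which make resveratrol, had 9 higher and 1 lower of 11, with 7 higher through all probes and a median of 0.83, and none of them was among the entries at hand of the rootstock list. Of those higher through both probes, VIT_16s0100g00850 had the largest difference in its first probe and measured 13.14, 13.23 and 13.41 against 11.82, 12.02, 12.04 and 11.96 (1.30 ± 0.18 and 1.00). The groups did not overlap. These genes are near-identical copies, so their probes may read several of them at once, and VIT_16s0100g00770, lower by 3.43 on the log2 scale through 1 probe, had a second probe at -0.14. Phenylalanine ammonia-lyases, which feed the same pathway, had 3 higher and 1 lower of 11 and none through all probes. O-methyltransferases had 9 higher and 2 lower of 13, and among those outside that list 7 and 0 of 8. Flavonoid enzymes had 11 and 10 of 34, among them a flavonol 3-O-glucosyltransferase (VIT_19s0014g02070, 2.84 and 1.86, at least 7.04-fold and 3.63-fold) and an anthocyanidin 3-O-glucosyltransferase in the opposite direction (VIT_19s0085g00800, -2.09 and -2.03).

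Heat shock proteins and glutathione transferases ran the other way. Heat shock proteins, the chaperones of unfolded proteins, had 6 higher and 15 lower of 31, 5 and 11 through all probes, and among those outside that list 2 and 9 of 19. HSP17.6, VIT_13s0019g03000, measured 6.46, 6.38 and 6.22 against 11.88, 11.48, 11.69 and 11.10 (-5.18 ± 0.25 and -1.60). Glutathione transferases, which couple glutathione to reactive compounds, had 7 higher and 10 lower of 19, and among those outside that list 1 and 7 of 8. GSTU19, VIT_19s0093g00310, measured 8.55, 8.44 and 8.40 against 12.60, 12.55, 12.27 and 11.98 (-3.88 ± 0.17 and -1.47). Both were separated on every array through their first probe. A neighbouring pair of GSTU9 genes differed by -3.07 and -2.53 (VIT_17s0000g06150) and by -2.84 and -2.41 (VIT_17s0000g06140).

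Terpene synthases had 8 higher and 6 lower of 22, 2 and 5 through all probes, and among those outside that list 0 and 3 of 4. Beside VIT_18s0001g04530, a valencene synthase (VIT_18s0001g05230, -2.92 and -1.92) and a further germacrene D synthase (VIT_18s0001g04870, -2.37 and -1.75) were lower. VIT_18s0001g04110, of the same name, was in contrast higher through 1 probe, at 10.55, 10.37 and 10.63 against 4.83, 4.75, 5.03 and 5.62, at least 40.9-fold, while its second probe gave 0.94 and was not called. Cell wall enzymes had 28 higher and 12 lower of 56, but among those outside that list 8 and 11 of 30. Cytochromes P450 had 29 and 20 of 61, peroxidases and laccases 14 and 13 of 34 (outside that list 1 and 6 of 11), and MATE transporters 7 and 7 of 19. Of the regulators, 11 of 27 MYB genes were higher and 5 lower, 8 and 4 of 21 bHLH genes (outside that list 2 and 2 of 12), and 4 and 2 of 11 WRKY genes. WRKY6, VIT_19s0090g00840, was higher by 1.17 ± 0.19 and 1.09. Auxin carriers had 5 and 3 of 8, and VIT_07s0031g02200, an auxin efflux carrier, was lower (-1.56 ± 0.12 and -1.36).

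**Figure D4:**
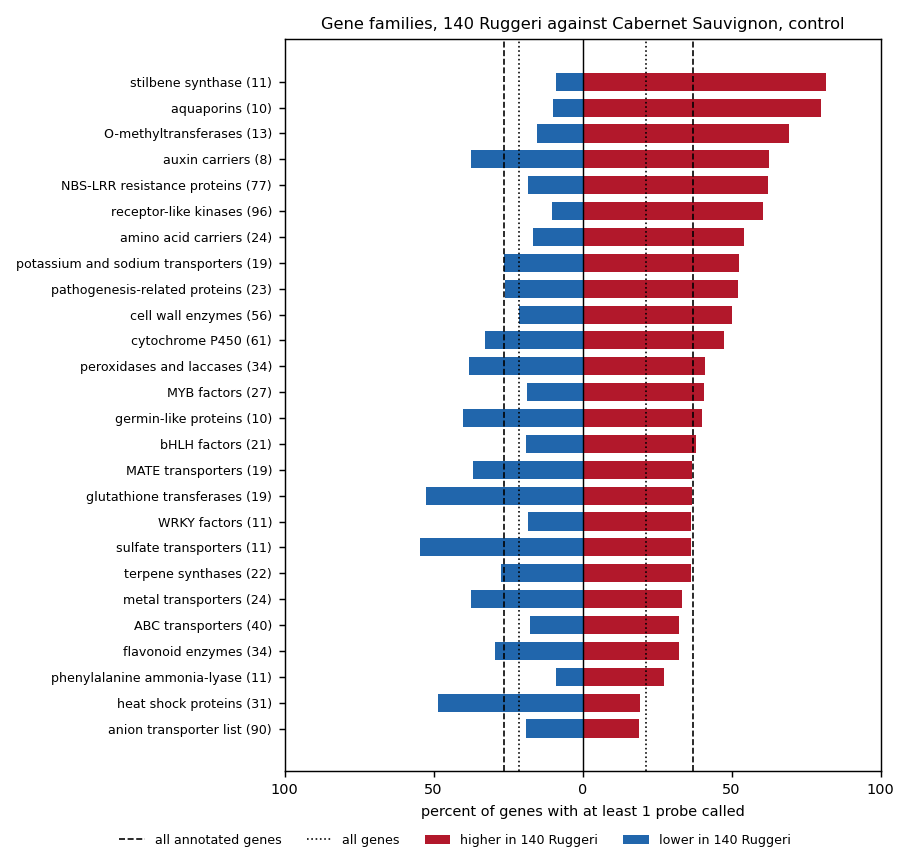
Percent of the genes of each family (vertical axis, number of genes in parentheses) with at least 1 probe called higher (red, to the right) or lower (blue, to the left) in 140 Ruggeri control roots; dashed lines mark all 2731 annotated genes (36.9% and 26.4%) and dotted lines all genes (21.2% and 21.2%). Stilbene synthases and aquaporins extend farthest to the right and sulfate transporters and glutathione transferases farthest to the left, while the 90 anion transporter genes stay near the dotted lines.

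The variety difference was measured again on arrays that did not enter the control means, 3 of 140 Ruggeri and 4 of Cabernet Sauvignon after 4 days in 50 mM Cl-. The authors' normalization and the model's estimate of the spread were shared by both sets of arrays. There 7090 probes were higher and 7349 lower, which together are 27.5% of the probes, against 7120 and 7354 in a fit of these 7 arrays alone. Of the probes higher in control roots, 99.5% had the same sign with salt, 77.6% were called in the same direction and 0 in the opposite one. Of the lower probes, 99.7% had the same sign, 84.7% were called again and 1 was called in the opposite direction. The differences correlated across probes with r = 0.964, and the median absolute difference of the called probes was 0.88 in control roots and 0.80 with salt.

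All 24 genes described as the highest and lowest were called again through both probes in the same direction, with differences of 1.53 to 5.38 in the high set and 1.63 to 6.3 in size in the low set. SOS1 differed by -4.79 in both conditions. Of the 17 higher and 17 lower anion transporter genes, 14 and 16 were called again through the same probe. NRT1.8 was among those that were not, with a difference of 0.68 with salt against 1.51 without. Of the 48 NBS-LRR genes that were higher 46 were called again, of the 9 stilbene synthases 8, of the 15 heat shock proteins that were lower 14, and of the 10 glutathione transferases 10.

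A direct test of the difference between the salt and the control values called 0 probes in the higher and 5 in the lower direction, 0.00953% of all probes, with an unadjusted p below 0.05 for 3.42%. The 5 probes belonged to 4 genes that were higher in 140 Ruggeri control roots and differed by -0.18 to -0.56 with salt. A germin-like protein 3, VIT_14s0060g02750, measured 11.47, 11.61 and 11.40 in 140 Ruggeri and 7.71, 7.89, 8.49 and 8.81 in Cabernet Sauvignon controls, a difference of 3.27. With salt the means were 12.08 and 12.38, a difference of -0.29, so that the change between conditions was -3.56 (adjusted p = 0.000151). Its other probe moved from 1.05 to 0.16 and was not called. CYP89A6, VIT_14s0036g00210, a cytochrome P450, was called through both probes, and its first measured 9.42, 9.24 and 9.66 against 7.71, 7.94, 8.11 and 7.94 in controls. Its salt means were 10.30 and 10.76, and the variety difference moved from 1.52 to -0.47 (change of -1.99, adjusted p = 0.00963) and from 1.52 to -0.56 (-2.08, adjusted p = 0.03). The other genes, GSVIVT01000101001 and GSVIVT01000102001, have neighbouring identifiers and no annotation at hand, and moved from 3.26 to -0.18 and from 3.09 to -0.42 through 1 probe each.

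**Figure D5:**
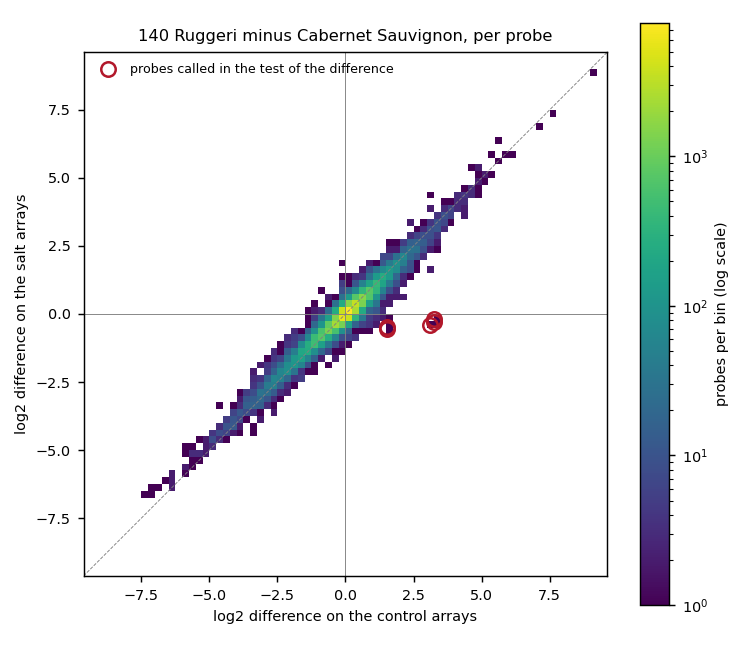
Log2 difference between 140 Ruggeri and Cabernet Sauvignon per probe on the control arrays (horizontal axis) and on the salt arrays (vertical axis), as the number of probes in each square bin on a log colour scale, with the line of equal values dashed. Points follow the dashed line (r = 0.964), and the red circles mark the 5 probes called in the test of the difference, which lie to the right of it near 0 on the vertical axis.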

How the data were processed

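RNA of 7 pooled root samples was hybridised to 1-colour custom arrays. The authors deposited scanner intensity values per spot (Agilent Feature Extraction 10.7.3) and a table of log2 values per spot, which they had quantile normalized and corrected with ComBat for hybridization date. The log2 values the authors deposited were joined to probes through the feature number, and the spots of a probe were averaged. Scanner intensities the authors deposited gave background flags and alternatives. Probes were not filtered by their match to the genome, as the authors did.

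A linear model with 6 group means was fitted to all 22 arrays with limma 3.58.1 in R 4.3.3, with Benjamini-Hochberg adjustment over 52478 probes. Summaries used Python 3.11.15 with pandas 2.3.3. On simulated data for this comparison the fit recovered 70.5%, 89.5% and 99% of 200 probes changed by 0.7, 1 and 2 log2 among 52478 probes. All other simulated probes had the same mean in every group, whereas 30.0% of the probes were called in the data. The share recovered in the data is therefore not known. Each array pools 4 plants, and the number of arrays limits the precision.

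Named genes were the 12 highest and 12 lowest annotated genes, the called or family members of the anion transporter list, the ion homeostasis genes and family examples. Members and lists were chosen with earlier results of these data known. Gene names came from the paper's tables, and 0 identifiers matched the RefSeq table. The reference genes ACT1, EF1-a and UBQ-L40 are not analysed here. Columns of the authors' own comparisons were not used.

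Background flags left out Cabernet Sauvignon control replicate 3, whose scanner file is doubtful, and in bounds its background level was the mean of those of the other Cabernet Sauvignon controls. Alternatives covered the arrays in the fit, scan date, slide, replicate block, source of the values, background correction, dim probes, fold threshold, centring, the rule from probes to genes and each array left out.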

Additional observations from a re-analysis of the deposited data

Results flagged for a closer look

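In 9 of 201 groups of 4 Cabernet Sauvignon arrays looked at, the probe of a named gene had 1 array far from the other arrays, where chance gives about 1 in 20, here 10.1. The distant array was replicate 4 for VIT_07s0141g00870 (6.43, others 6.13 to 6.15), VIT_13s0084g00570 (5.63, others 4.98 to 5.02), VIT_11s0052g01530, a MATE transporter (9.43, others 9.64 to 9.67), VIT_00s1314g00010, a bHLH factor (6.19, others 5.85 to 5.87), and VIT_01s0011g01200, a MYB factor (6.68, others 6.40 to 6.44). That array was the one scanned on the second date. It was replicate 3 for germin protein 3, VIT_14s0128g00690 (7.62, others 7.96 to 8.0). It was replicate 1 for the Ca2+-ATPase ACA2-g00180 (10.53, others 10.90 to 10.95) and for VIT_18s0001g02390, a diphenol oxidase (8.14, others 8.55 to 8.63). It was replicate 2 for VIT_07s0151g00340, a sulfate transporter (11.83, others 11.41 to 11.42).

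The difference between the varieties changed with salt for 5 probes. The change was -3.56 for the germin-like gene VIT_14s0060g02750, -1.99 and -2.08 for the 2 probes of CYP89A6 (VIT_14s0036g00210), -3.44 for GSVIVT01000101001 and -3.51 for GSVIVT01000102001.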

How the results depend on the processing

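With each control array left out in turn, 7667 to 8266 probes were higher and 7631 to 8027 lower, 5407 to 5768 genes were higher and 5439 to 5724 lower, and 16 to 18 and 17 to 18 anion transporter genes were called. On the salt arrays the ranges were 6747 to 7262 and 6993 to 7484 probes. In the test of the change with salt they were 0 to 2 and 4 to 6 probes, with 2 higher without 140 Ruggeri control replicate 3. A fold threshold of 1 log2 gave 2761 and 3659 probes, 2008 and 2776 genes, and 9 and 8 anion transporters. Through all probes there were 2372 and 2258 genes and 10 and 10 anion transporters, and with probes averaged per gene 3662 genes were higher and 11 anion transporters lower. On scanner values the lower anion transporters numbered 8 (normexp), 10 (median signal) and 11 (scaling by the 75th percentile). Scaling by the 75th percentile moved the median of all probes from 0.04 to 0.167. Normexp, run on the median signal and added after seeing the data, gave 5595 and 5589 probes, and the planned version on the mean signal was not run. The WRKY51 gene VIT_04s0069g00970 reversed to 0.04 under the 75th percentile, and VIT_17s0000g05550 (second model) to -0.36 with probes averaged. Of 170 named genes called, 82 kept their call in every setting. Among the others, the PHO1-like VIT_01s0182g00150, CYP89A6 and the laccase VIT_08s0007g01550 lost theirs in the same 3 settings as NAXT1. So did the anthocyanidin 3-O-glucosyltransferase VIT_19s0085g00800. The replicate numbers were not treated as pairs, because arrays of 1 number correlated with r of 0.167, 0.009 and 0.045. With the replicate block there were 8291 and 8050 probes, 5793 and 5704 genes, 17 and 17 anion transporters, and 0 and 5 probes for the change with salt. Dim probes have a low signal over background, which limits their differences to bounds.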

Other observations

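Transporters that serve the root's own supply also differed. A PHO1-like gene, VIT_01s0182g00150, of the family that releases phosphate into the xylem, was higher in 140 Ruggeri by 1.56 ± 0.18 and 1.43, and a second one, VIT_00s1333g00010, by 1.42 ± 0.21 and 0.83. The HKT1 gene VIT_11s0103g00050, a sodium carrier, was higher by 0.72 and 0.96 (means of 8.80 and 8.08, and of 11.36 and 10.40). In contrast, VIT_05s0020g01820, a membrane protein of the UPF0497 family that includes Casparian strip proteins, was lower by 1.22 on the log2 scale, with -0.93 for its other probe. ABCC15, VIT_16s0050g02480, was lower (-1.96 and -1.22) and ABCC9, VIT_19s0015g00050, higher (1.77 and 1.95).

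Among oxidative enzymes, a laccase, VIT_08s0007g01550, of a family that oxidises lignin precursors, had differences of -2.06 and -1.79, and the peroxidase VIT_01s0010g02020 of -2.22 and -2.16. The photosystem gene LHCA3 gave opposite values through its 2 probes, -2.19 and 0.43, the second of them not called. A neighbouring pair of WRKY51 genes also ran in opposite directions, VIT_04s0069g00980 at 0.87 and 0.72 and VIT_04s0069g00970 at -0.66 and -0.72, although the latter reversed under 1 scaling of the scanner signal.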
